A study of Mus musculus with 4 samples.

Results

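The RNAs described here were 7SK, 7SL, the RNA of RNase P, the RNA of RNase MRP and the RNA of telomerase, as measured in 4 RNA-seq libraries of mouse intestine. They were the transcripts that the deposited tables name 7SK, Rn7s1, Rn7s2, Rn7s6, Metazoa_SRP, Rpph1, Rmrp or Terc. This gave 345 of 141738 transcripts, each kept on its own because many loci share a name. Of these, 328 were named 7SK and 12 Metazoa_SRP, 2 were named Rmrp, and Rn7s6, Rpph1 and Terc had 1 each. No transcript carried the name Rn7s1 or Rn7s2.

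The tissue came from adult male mice of the wild-type strain C57BL/6NTac, 8 to 12 weeks old and kept free of specific pathogens (SPF). The labels of 2 libraries give a treatment with 4 mM RVC (ribonucleoside vanadyl complex, which inhibits ribonucleases), and those of the other two read fresh frozen. The same protocol, with an RVC rinse, was given for all 4 libraries, so how the fresh-frozen tissue was handled is known from the label alone. The tissue labels name ileum and the protocol distal colon. All 5 colon markers examined were above 1 FPKM in every library. Of 5 ileum markers 2, Fgf15 and Apoa4, were listed at 0. The other 3, Fabp6, Slc10a2 and Clec2h, were above 1 FPKM in every library, Clec2h at 232.2 to 271.5. Which tissue was sequenced is therefore not settled here. The batch numbers, 1 to 4, were different for each library, so a batch effect and the group difference cannot be told apart. Nothing states that the libraries came from different mice, and the p-values rest on the spread between libraries, which may be technical. Limma, the test used for single transcripts and genes, draws its error partly from other transcripts or genes of similar level.

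These RNAs are made in all cells, and they work as folded molecules bound to proteins rather than as messages. 7SK holds the elongation kinase P-TEFb inactive together with HEXIM, LARP7 and MEPCE proteins. 7SL is the scaffold of the signal recognition particle, which brings ribosomes that make secreted proteins to the endoplasmic reticulum. Rpph1 is the catalytic RNA of RNase P, which trims the 5′ ends of transfer RNA precursors, and Rmrp is its relative in RNase MRP, which takes part in ribosomal RNA processing. Terc carries the template from which telomerase copies telomere repeats. RNA polymerase III makes 7SK, 7SL, Rpph1 and Rmrp, whereas Terc is made by RNA polymerase II. None of them needs a poly(A) tail to be captured here, since libraries were made from RNA depleted of ribosomal RNA.

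The main 7SK locus and the copy with the longest exact match to it are shown first, because much of the 7SK signal assigned to other loci lay in copies that hold a long exact stretch of the main RNA. Sequences were read from GRCm39 on the transcribed strand. The main locus, which the files name 7SK and GENCODE vM39 names Rn7sk, is chr9:78082585-78082915 on the minus strand. It overlaps no annotated protein-coding or long noncoding gene. The copy, Gm54754, is chr15:93132244-93132581 on the plus strand, also outside such genes. Capitals mark the first 241 bases, which are the same in both, and lower case what follows to base 300.
Rn7sk: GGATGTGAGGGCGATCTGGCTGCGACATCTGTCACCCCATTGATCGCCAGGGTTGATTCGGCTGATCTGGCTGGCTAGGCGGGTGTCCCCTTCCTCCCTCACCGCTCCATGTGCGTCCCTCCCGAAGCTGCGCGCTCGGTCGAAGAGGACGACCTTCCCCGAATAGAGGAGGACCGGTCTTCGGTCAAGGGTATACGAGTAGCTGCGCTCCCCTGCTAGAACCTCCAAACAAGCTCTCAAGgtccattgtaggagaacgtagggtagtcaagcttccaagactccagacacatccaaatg
Gm54754: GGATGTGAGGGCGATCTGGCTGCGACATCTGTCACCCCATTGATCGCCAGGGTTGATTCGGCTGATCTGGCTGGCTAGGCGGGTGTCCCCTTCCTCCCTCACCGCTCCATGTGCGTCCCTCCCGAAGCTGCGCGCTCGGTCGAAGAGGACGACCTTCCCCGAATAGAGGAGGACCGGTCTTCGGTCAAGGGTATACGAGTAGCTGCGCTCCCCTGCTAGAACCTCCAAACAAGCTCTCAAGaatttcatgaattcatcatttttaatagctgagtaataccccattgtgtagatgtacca
The main RNA held GATC, a motif of the HEXIM-binding part of 7SK, at bases 13, 42 and 64, all within the shared stretch.

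The main 7SL loci, which GENCODE vM39 names Rn7s1 and Rn7s2, are both named Metazoa_SRP in the files.

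Terc (chr3:96321753-96322149, minus strand) begins with the telomere template, in capitals in its first 60 bases.
Terc: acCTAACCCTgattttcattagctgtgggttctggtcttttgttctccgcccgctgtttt
No protein-coding or long noncoding gene of another name overlapped this locus, and a second transcript listed there is described near the end.

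The flanks of Rn7sk and of its copy were compared because the copies share the RNA but not necessarily what surrounds it. The 40 bases before the start are given with the letters TATA in capitals, and then a window of 29 bases (the last 4 of the RNA and the 25 after it) with the first TTTT, the letters at which RNA polymerase III ends transcription, in capitals. TATA reads the same on both strands, and TTTT was searched on the transcribed strand only.
Rn7sk before the start: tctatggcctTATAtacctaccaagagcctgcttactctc
Gm54754 before the start: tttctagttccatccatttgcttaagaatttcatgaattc
Rn7sk end: cTTTTgtagttcctgcaatttaattttcg
Gm54754 end: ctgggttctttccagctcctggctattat
Rn7sk had both, TATA beginning 30 bases before its start, and Rpph1 also had both, with TATA 32 bases before. Rmrp had TTTT but not TATA. Terc and the 7SK copies Gm54754, Gm55636 and Gm55604 had neither. Among copies with lower values described below, Gm56244 had TATA beginning 18 bases before its start but not TTTT. Gm56381 and Gm56077 had TTTT but not TATA, and Gm54658 had neither. Over 78243 annotated genes 8.73% held TATA and 25.8% held TTTT in windows of the same lengths. Among the 327 7SK loci other than Rn7sk the shares were 13.8% and 19.3%, and 9 loci held both. A match of these letters is a description and not a promoter or terminator.

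Values were FPKM, fragments per kilobase of transcript scaled to mapped fragments. The unit is meant to make transcripts of different length comparable, but it weighs short RNAs such as these heavily. Of the 345 loci, 235 were listed at 0 in all 4 libraries, 108 were above 0 in at least 1 library and 32 in all 4. A mean of at least 1 FPKM was reached by 26 loci, and of at least 1000 FPKM by 8. Rn7s1 and Rn7s2 had the status for too much data in every library and are missing, so the 7SL values below leave out the main 7SL genes.

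Rn7sk was the most abundant of all transcripts with a value in each of the 4 libraries. The RVC libraries measured 163070 (RVC 1) and 161857 FPKM (RVC 2), and the fresh-frozen libraries 123647 (fresh frozen 1) and 110159 (fresh frozen 2). Both RVC libraries were above both fresh-frozen libraries, and the RVC mean, 162464 ± 858 (SD, n = 2), was 1.39 times the fresh-frozen mean of 116903 ± 9537 (SD, n = 2). The counting bounds in the files were narrow beside this difference, 162665 to 163474 in RVC 1. In the fit over all transcripts the log2 fold change was 0.48 with a standard error of 0.39, and limma's adjusted p was 0.59, so the difference did not pass the test. This error is drawn partly from other transcripts of similar level, so it does not describe how far the Rn7sk values themselves spread within the groups.

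The next level belonged to Rn7s6, a 7SL locus, with 64647 FPKM in RVC 1, 64966 in RVC 2, and then 43683 and 51307 for fresh frozen 1 and 2. Loci of 1 RNA family can share reads, so this value is uncertain. The groups did not overlap, with a ratio of means of 1.36 and an adjusted p of 0.54 in limma. Rpph1 (chr14:51044906-51045224, minus strand) followed at 60383, 57918, 36885 and 33317 FPKM in the same order of libraries. It overlaps Ccnb1ip1, on the same strand, and Parp2, on the opposite strand, and touches exon sequence among these genes. Without a stated strand setting its reads cannot be fully told from theirs. Rpph1 was 1.69 times as high in the RVC libraries as in the fresh-frozen ones, the largest ratio among the 8 loci of at least 1000 FPKM. Its log2 fold change was 0.75 ± 0.29 (SE), with an adjusted p of 0.351 in limma. Rn7s6 stood above Rpph1 in all 4 libraries, from 107.1% of it in RVC 1 to 154.0% in fresh frozen 2.

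Rmrp was listed as 2 overlapping transcripts on chromosome 4, minus strand, opposite Ccdc107: one of 271 nt at 43492788 to 43493058 and one of 281 nt that contains it, at 43492783 to 43493063. Both overlap an exon of Ccdc107, so without a stated strand setting their reads cannot be fully told from those of Ccdc107. The sum of the 2 Rmrp transcripts was 11990 FPKM for RVC 1 and 11731 for RVC 2, against 11731 for fresh frozen 1 and 12245 for fresh frozen 2. The highest library was 1.04 times the lowest, and the groups overlapped. The ratio of Rpph1 to Rmrp, 503.6% and 493.7% in RVC, was 314.4% and 272.1% in the fresh-frozen pair, a mean of 498.6% ± 6.997 against 293.3% ± 29.9 (SD, n = 2 each). These values did not overlap, and an exact permutation test, two-sided, gave p = 0.333, the smallest that 2 libraries against 2 allow. The split between the Rmrp transcripts is an estimate from shared reads: the 271 nt transcript took 58.6% and 60.3% of the sum in RVC but 52.5% and 53.3% in the fresh-frozen pair. Accordingly the shorter row had a log2 fold change of 0.15 and the longer one of -0.23, both short of the threshold (limma, adjusted p 0.72 and 0.564).

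Terc was far below Rn7sk in the table. RVC 1 had 19.6 FPKM and RVC 2 had 17.0, while fresh frozen 1 had 15.1 and fresh frozen 2 had 18.7. The groups overlapped, and the bounds in the files for RVC 1 alone, 15.8 to 23.3, took in 3 of the 4 values. Its log2 fold change was 0.11 ± 0.17 (SE; limma, adjusted p 0.774), and it turned to -0.06 without fresh frozen 1.

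**Figure D1:**
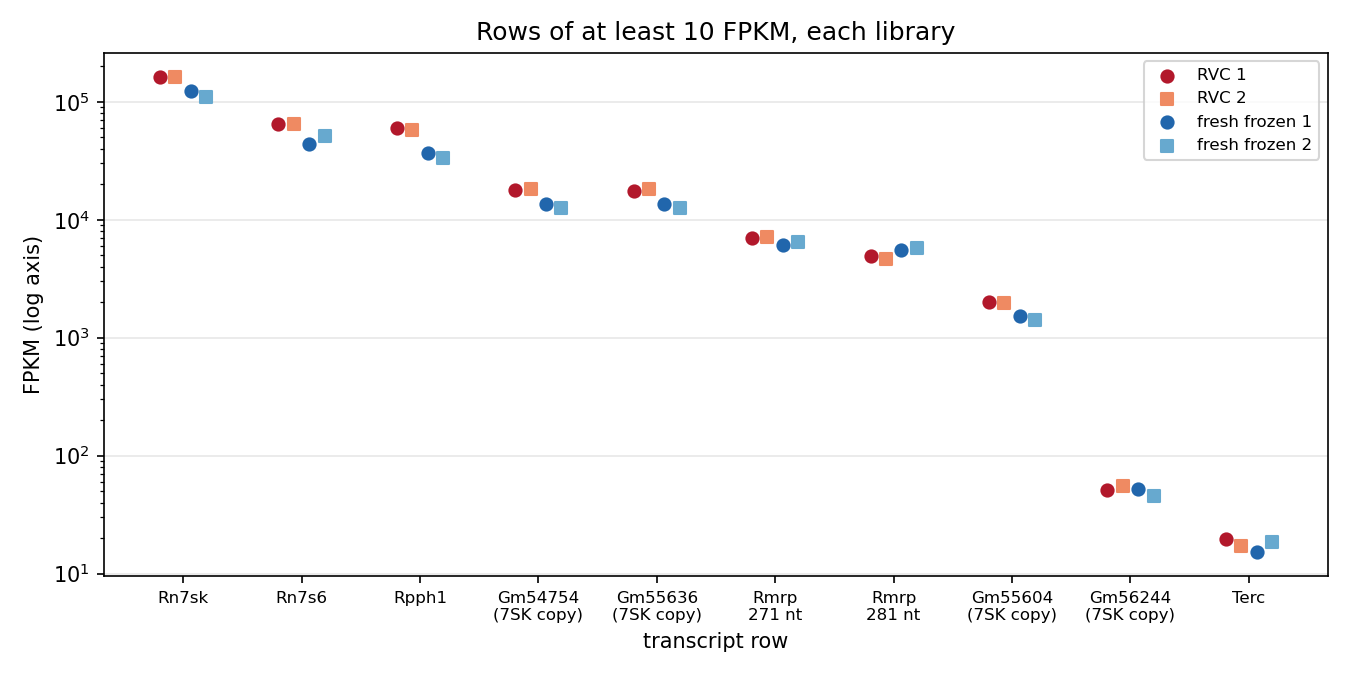
FPKM of the 10 transcripts with a mean of at least 10 FPKM, on a log axis, with 1 point per library (red and orange, RVC; blue, fresh frozen). Rn7sk lies highest at 110159 to 163070, the 2 Rmrp rows move in opposite directions between the groups, and Terc lies lowest with overlapping groups.

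Among the other 327 loci named 7SK, level followed how long an exact stretch of Rn7sk the locus held. The 3 loci with a run of 100 bases or more had means of 15630, 15470 and 1729 FPKM. These were Gm54754 (run of 241 bases), Gm55636 (235 bases, chr2:7080905-7081225, minus strand, in an intron of Celf2) and Gm55604 (109 bases, chrX:151706449-151706756, minus strand). The 4 loci with runs of 50 to 99 bases had means of 4.80 to 50.9 FPKM, the highest being Gm56244 on chromosome 5 (79 bases). Of 18 loci with runs of 31 to 49 bases, 12 were at 0 in all libraries and the highest mean was 0.63 FPKM. Of 302 with shorter runs, 222 were at 0 and 6 reached 1 FPKM, the highest mean being 2.31. Reads from a shared stretch fit more than 1 locus, so the values of the copies are uncertain, and how many of their reads came from Rn7sk was not tested.

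**Figure D2:**
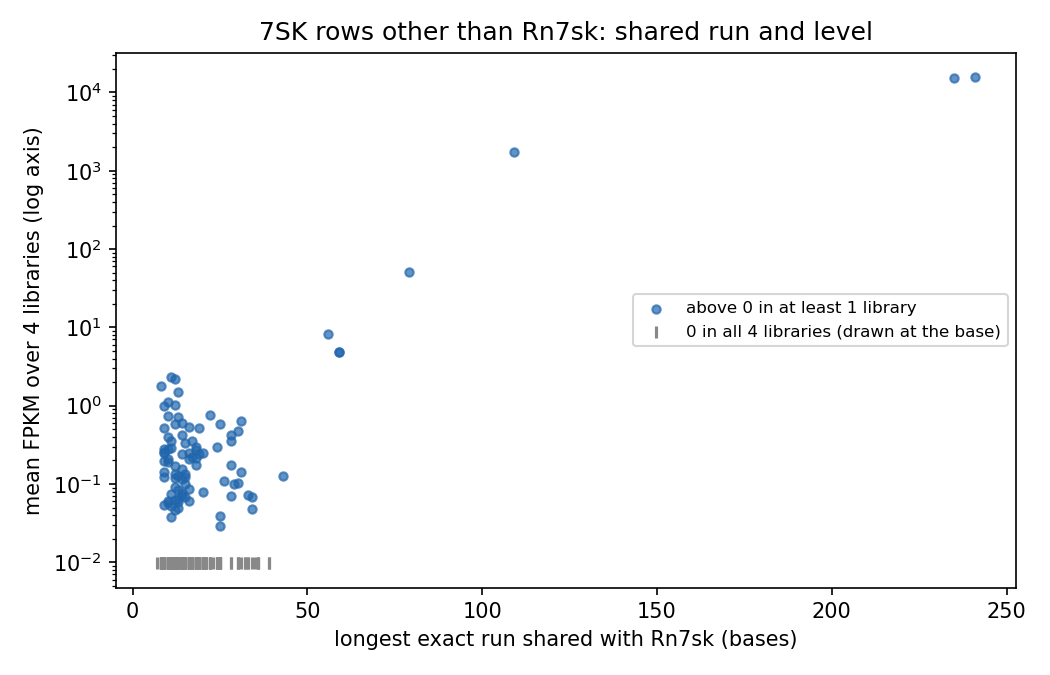
Mean FPKM over the 4 libraries (log axis) against the longest exact run shared with Rn7sk, for the 327 other loci named 7SK, with those at 0 in all libraries as grey ticks at the base. The 7 loci with runs of 50 bases or more lie above 4.80 FPKM, and the rest lie at or below 2.31.

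The large copies kept a nearly fixed proportion to Rn7sk from library to library. Gm54754 stood at 11.0%, 11.3%, 11.0% and 11.5% of Rn7sk in RVC 1, RVC 2, fresh frozen 1 and fresh frozen 2. Gm55636 averaged 11.1% ± 0.255 (SD, n = 4) and Gm55604 1.24% ± 0.0225 (SD, n = 4). Gm54754 and Gm55636 could not be ordered, since Gm55636 was the higher of the pair in fresh frozen 1 only (13596 against 13590 FPKM). By comparison Rn7s6 ranged from 35.3% to 46.6% of Rn7sk and Rmrp from 7.25% to 11.1%, a wider spread than that of the copies. The copies differed between groups as Rn7sk did, with ratios of RVC to fresh frozen of 1.38, 1.37 and 1.35, and since they share sequence they are no further replicates of that difference.

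**Figure D3:**
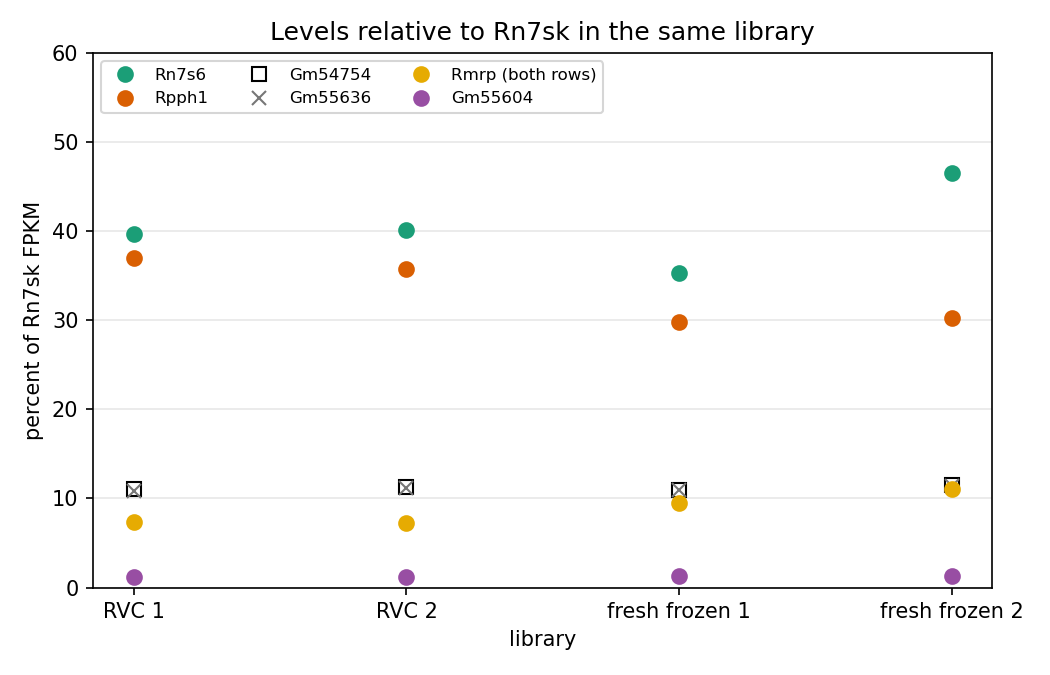
FPKM of 6 RNAs as a percent of Rn7sk in the same library, 1 point per library. The copies Gm54754, Gm55636 and Gm55604 lie level across libraries, at means of 11.2%, 11.1% and 1.24%, whereas Rpph1 is higher in RVC and Rmrp lower.

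The 4 copies with intermediate runs were low beside Rn7sk in every library. Gm56244 measured 51.6, 54.8, 51.7 and 45.3 FPKM in RVC 1, RVC 2, fresh frozen 1 and fresh frozen 2, with fresh frozen 1 between the RVC values on the deposited scale. Gm56381 measured 9.0, 9.37, 7.42 and 7.13 FPKM. Gm54658, in an intron of Atl1, measured 5.80, 6.24, 3.61 and 3.69, and Gm56077 measured 5.69, 6.78, 3.59 and 3.16 in the same order. In the last 3 the groups did not overlap, with log2 fold changes of 0.30, 0.59 and 0.72 and adjusted p-values of 0.34, 0.277 and 0.276 in limma.

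A short longest run mostly, but not always, went with a more distant copy. Counted as identical bases in a pairwise alignment over the longer sequence, identity to Rn7sk was 80.4% to 86.4% for the 7 loci with runs of 50 bases or more, and 19.9% to 89.4% with a median of 62.5% for the other 320. Among these 320, 3 loci reached 80% identity, and the highest mean level of the 3 was 0.126 FPKM. Gm55801, with the highest identity but a run of only 34 bases, had a mean of 0.047 FPKM, against 15630 FPKM for Gm54754 at 84.9% identity. The 320 loci were also described by where they lie. Of them, 86 were above 0 in at least 1 library, and 71 of these (82.6%) lay within a protein-coding gene. Of the 234 at 0 in all libraries, 62 (26.5%) did. The host genes of the first set had a median of 9.13 FPKM and those of the second, where found in the files, of 0.62 FPKM (57 genes matched of 62). Only 36 of the 71 lay on the strand of their host, and 10 of the 86 touched an exon. Together they came to 33.3 and 34.3 FPKM in RVC, against 19.1 and 27.5 FPKM in the fresh-frozen pair, far below Rn7sk alone. How much of it came from host transcripts was not tested.

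The 6 of these that reached a mean of 1 FPKM were Gm55882, Gm55876, Gm55298, Gm54899, Gm54859 and Gm55164, all inside protein-coding genes. Gm55882, on an exon of the splicing kinase gene Clk4, measured 2.30, 3.64, 1.36 and 1.92 FPKM in RVC 1, RVC 2, fresh frozen 1 and fresh frozen 2. Gm55876, opposite Kmt2e, measured 1.96, 3.20, 2.03 and 1.64, and Gm55298, opposite the magnesium channel gene Trpm6, 5.35, 0.741, 0 and 0.991. Their groups overlapped except in Gm55882.
Gm54899, opposite Arfgef1, measured 2.196, 0.539, 2.12 and 1.12 FPKM. Gm54859, in Slc22a23, measured 2.68, 0.668, 0.339 and 0.725, and Gm55164, in Larp4b, 1.26, 1.26, 0.643 and 0.917. Of these only Gm55164 had groups that did not overlap.

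Outside Rn7s1 and Rn7s2, the 10 loci named Metazoa_SRP had sums of 20.7 FPKM (RVC 1), 18.2 (RVC 2), 15.3 (fresh frozen 1) and 17.0 (fresh frozen 2), so nearly all 7SL signal with a value lay in Rn7s6. Gm56405, in Rap1gap2, had the highest mean, with 6.66, 3.72, 4.01 and 4.28 FPKM in RVC 1, RVC 2, fresh frozen 1 and fresh frozen 2. Gm55425 measured 3.56, 5.69, 3.27 and 5.55, above Gm56405 in RVC 2 and fresh frozen 2, Gm56242 2.23, 2.38, 1.37 and 1.80, and Gm54720 3.11, 1.85, 1.96 and 0.798. Among these 4 only Gm56242, opposite Adap1, had groups that did not overlap.
Gm55459 measured 1.16, 2.70, 1.78 and 1.34 FPKM, Gm55356 1.87, 0.784, 1.25 and 2.16, and Gm54487 1.12, 1.03, 1.17 and 1.07. In these last 3 the groups overlapped.

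As a share of each library's FPKM sum, the members took 35.4% and 34.8% of the RVC libraries, against 28.9% and 27.5% of the fresh-frozen pair. The difference in means was 6.90 percentage points, and the groups did not overlap (exact permutation test, two-sided, p = 0.333, the smallest possible). Loci named 7SK held most of it, with 21.0% and 20.8% against 18.0% and 16.1%. RNase P and MRP together held 7.58% and 7.23% against 5.73% and 5.36%, and 7SL 6.78% and 6.75% against 5.16% and 6.04%. Terc held between 0.00177% and 0.0022% of each library, and its groups overlapped (exact permutation test, p = 0.667). Without fresh frozen 1 the 7SL difference fell from 1.17 to 0.72 points. Within the RNase group Rpph1 took 6.17% ± 0.221 in RVC and 4.14% ± 0.304 in fresh frozen, and Rmrp 1.24% ± 0.0270 and 1.41% ± 0.0406 (SD, n = 2 each). The Rmrp difference of -0.175 points depended on the denominator: against transcripts of at least 300 nt it was -0.046, and by coverage times length -0.016, with overlapping groups in both.

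Those sums were 954308 (RVC 1), 962928 (RVC 2), 847754 (fresh frozen 1) and 849638 FPKM (fresh frozen 2). The members made up 88.4% of the difference between the group means. Their summed FPKM was 1.41 times as high in RVC, whereas the sum over all other transcripts was 616503, 627887, 602966 and 615897 in RVC 1, RVC 2, fresh frozen 1 and fresh frozen 2, a ratio of 1.02. FPKM weighs short RNAs heavily, and the size of the share depended on this. Weighted instead by coverage times length, which approximates sequenced bases, the members took 11.9%, 11.6%, 8.62% and 8.54% in the same order, with RVC again above fresh frozen.

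**Figure D4:**
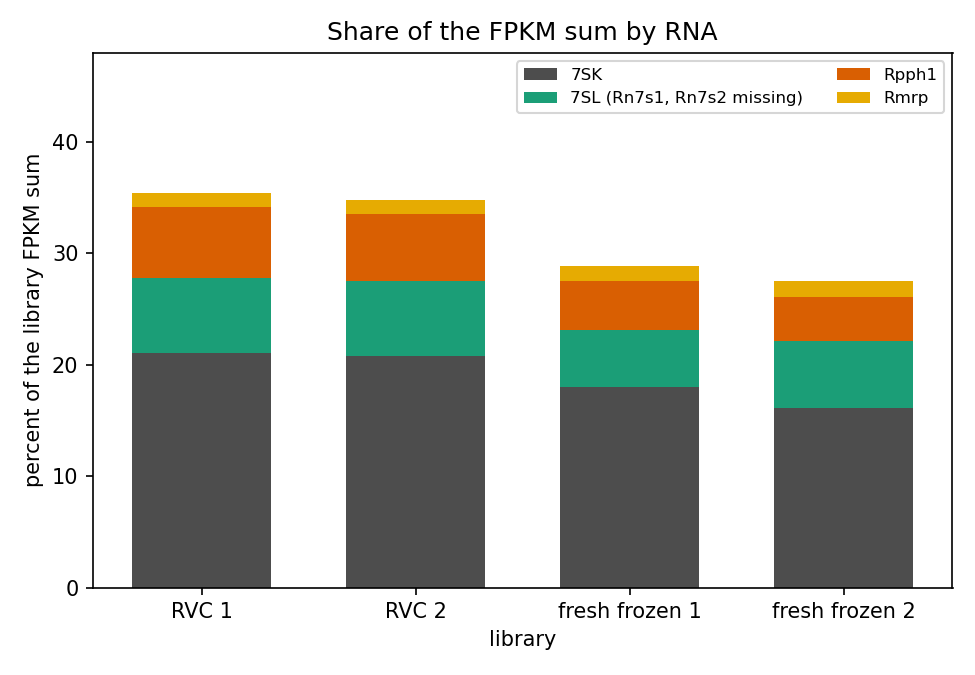
Percent of each library's FPKM sum held by the loci named 7SK, the 7SL loci with a value, Rpph1 and Rmrp, as stacked bars. The RVC stacks reach 35.4% and 34.8%, the fresh-frozen stacks 28.9% and 27.5%, and the Rmrp band is the one that is not larger in RVC.

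Over all transcripts, 25214 were tested with limma and 7 passed at an adjusted p of 0.05, or 0.0278%. None of the 26 members tested was among them, and 4 had an unadjusted p under 0.05, near the 14.5% of all transcripts that did. On scaled values both RVC libraries exceeded both fresh-frozen ones in 14 members, including Gm56244, whose groups overlapped on the deposited scale. Of the rest, 1 was lower without overlap (the longer Rmrp transcript) and 11 overlapped. Of all 25214 transcripts tested, 25.1% were higher and 6160 were lower without overlap. The median log2 fold change was 0.35 over the members tested, 0.01 over all transcripts and 0.08 over 1137 other transcripts of 250 to 400 nt. The 26 include copies that share reads with Rn7sk, so they are fewer separate measurements than their number. Counting only the rows of Rn7sk, Rn7s6, Rpph1, Rmrp and Terc, 4 of 6 were higher without overlap and the median was 0.30.

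**Figure D5:**
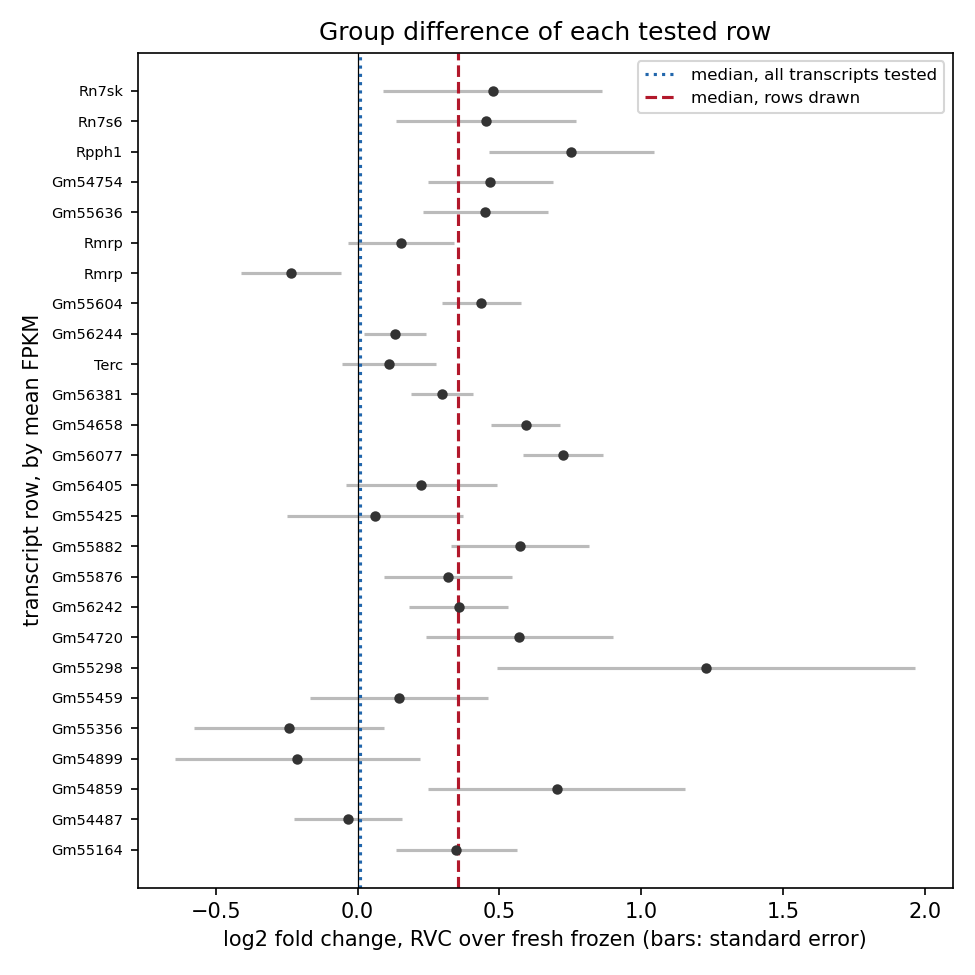
Log2 fold change of RVC over fresh frozen with its standard error for the 26 transcripts tested, ordered by mean FPKM with the highest on top. The dashed line is their median, 0.35, and the dotted line the median of all transcripts tested, 0.01.

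Several cell type markers moved with the groups. All 6 smooth muscle markers were higher in RVC without overlap, their sum being 1089 and 1629 FPKM against 666 and 718. All 5 endothelial markers and 4 of 5 plasma cell and macrophage markers were also higher, and 4 of 5 proliferation markers were lower. Of the 5 epithelial markers 2 were higher. Over all genes tested, 3666 of 13774 were higher and 3661 were lower without overlap, on scaled values. No red blood cell marker separated the groups. Their sum was 362.9 and 104.7 FPKM in RVC 1 and 2, and 363.1 and 66.4 in fresh frozen 1 and 2. The part of tissue composition in the member differences was not tested, and in bulk tissue fewer cells of a type and less RNA per cell cannot be told apart. Relative depth, read from coverage over FPKM, was 81.8% and 79.8% of the deepest library in RVC 1 and 2, 72.6% in fresh frozen 1 and 100% in fresh frozen 2, so it did not separate the groups.

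No gene for a protein partner of these RNAs passed the test. Of 69 partner and polymerase III symbols, 64 could be tested among 13774 genes, and limma called 0 of them at an adjusted p under 0.05, against 0.0363% of all genes (5). At an unadjusted p under 0.05 there were 12, near the share of 18.4% over all genes. Of the 64, 23 had a positive and 41 a negative log2 fold change, against 7051 and 6723 over all genes. The median was -0.09 against 0.01 over all genes. Groups did not overlap in 39 of the 64 (11 higher, 28 lower), where 53.2% of all genes had no overlap in either direction (3666 higher, 3661 lower).

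In the 7SK particle, 11 of 12 proteins were tested. Larp7, which protects the 3′ end of 7SK, measured 3.98 and 4.00 against 5.06 and 4.19 scaled FPKM (RVC first here and below), a log2 fold change of -0.17 ± 0.14 (SE; limma, adjusted p 0.528). Mepce, which caps 7SK, and Hexim1, the kinase inhibitor, had log2 fold changes of 0.15 and 0.13 (limma, adjusted p 0.544 and 0.55). The smallest p-values belonged to 3 other RNA-binding proteins known to bind 7SK. Hnrnpa2b1 measured 121.5 and 137.3 against 172.7 and 173.6 scaled FPKM (limma, log2 fold change -0.42, adjusted p 0.152). Hnrnpa1 had a log2 fold change of -0.50 and the splicing factor Srsf2 of -0.37 (limma, adjusted p 0.159 and 0.206). All 3 were lower in both RVC libraries. Over the 11 tested, 5 were lower and 3 were higher in RVC without overlap, so the particle's genes had no common direction.

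Of the proteins of the signal recognition particle and its receptor, 10 were tested, 6 with a negative difference. Srp19, which binds 7SL before the GTPase subunit joins, measured 16.3 and 18.5 against 21.6 and 23.1 scaled FPKM (limma, log2 fold change -0.34, adjusted p 0.2). Srp54a and Srp54b, copies of the GTPase subunit gene whose reads may be shared, had log2 fold changes of -0.21 and -0.22 (limma, adjusted p 0.322 and 0.345).

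Of the RNase P and MRP proteins 9 were tested. Rpp21, known from RNase P rather than RNase MRP, was at 13.8 and 13.8 against 11.8 and 10.9 scaled FPKM, with a log2 fold change of 0.26 ± 0.11 (SE; limma, adjusted p 0.271). The shared subunit genes Rpp30 and Rpp25l differed by -0.19 and 0.15 (limma, adjusted p 0.517 for both). Of the telomerase proteins 8 were tested and Tert, the reverse transcriptase, did not reach the level for testing. Dkc1, which holds the 3′ part of Terc, measured 4.36, 3.90, 7.87 and 4.49 scaled FPKM in RVC 1, RVC 2, fresh frozen 1 and fresh frozen 2 (limma, log2 fold change -0.45, adjusted p 0.32), with fresh frozen 1 apart from the rest and a log2 fold change of -0.10 without it and of -0.80 without fresh frozen 2. Wrap53 and Naf1, which guide the particle and its assembly, differed by 0.23 and -0.20 (limma, adjusted p 0.417 and 0.501).

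All 26 genes of RNA polymerase III and its factors were tested, 16 with a negative difference. Maf1, the repressor of polymerase III, measured 29.6 and 25.3 against 18.8 and 17.9 scaled FPKM, and its log2 fold change of 0.55 ± 0.12 (SE; limma, adjusted p 0.126) had the smallest p in the list. Snapc2, a subunit of the complex that binds the promoters of genes such as Rn7sk and Rpph1, measured 5.58 and 5.80 against 3.69 and 3.91 (limma, log2 fold change 0.48, adjusted p 0.145). Polr3g, a polymerase subunit, was at 1.77 and 1.43 against 2.48 and 2.66 (limma, log2 fold change -0.46, adjusted p 0.193). Neither Maf1 nor Snapc2, both higher in RVC, passed the test. Without overlap, 3 of the 26 genes were higher in RVC and 12 were lower, against 3666 and 3661 of 13774 genes. A link of any of them to the levels of Rn7sk or Rpph1 was not tested.

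The transcripts with the most similar profile over the 4 libraries were sought among 22514 that are no members, by the root mean square distance of centred log2 values. For Rn7sk the nearest was Rhoc, a small GTPase gene, at 215.9 and 210.2 against 158.8 and 147.1 scaled FPKM (distance 0.0081), followed by transcripts of Lrrc57, Cdip1, Ap5s1 and Arhgef25. For Rn7s6 they were transcripts of Igsf3, H3c1, Ccdc120, Casz1 and Oga. For Rpph1 they were transcripts of Maz, Azin1, a U6 locus, Enox2 and Prpf38b. With 4 libraries many transcripts share such a profile. A value of 1 was added before taking logs, which shrinks the differences of low transcripts, so these can come near with larger ratios. Lrrc57, for example, was at 1.54 and 1.58 against 0.94 and 0.77 scaled FPKM.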

How the data were processed

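Tissue RNA was depleted of ribosomal RNA and sequenced as 150-bp read pairs, per the labels' protocols. The authors aligned reads with TopHat2 2.1.1 to GRCm39 and estimated transcripts with Cufflinks 2.2.1 at default parameters, per the submitters' processing notes and the design text. The deposited values were FPKM per transcript with confidence bounds, a status, and coverage, a signal of reads per base, per the file headers. The annotation release and strand setting are not given in the sources used here, and the number of fragments is unknown. All 345 members had the same ends in GENCODE vM39, used for names, strands and neighbours. A status other than OK was treated as missing. Libraries were scaled by median ratio, and log2(scaled FPKM + 1) was tested with limma 3.58.1 in R 4.3.3 (trend, two-sided, Benjamini-Hochberg, threshold 0.05) for transcripts with a mean of at least 1 and status OK in all 4 libraries. No length minimum was set for transcripts. Gene sums needed a longest transcript of at least 300 nt. A fold change on this scale understates changes of low transcripts. Shares were compared with exact permutation tests. Members with a mean of at least 1 FPKM are given with all values. In each partner list the 3 of smallest p are named, and Larp7, Mepce and Hexim1 were added for their role after values were seen. The fit was run on simulated data with planted log2 changes of at least 1, so its power for smaller changes was not tested. Members and lists were chosen with earlier results of these data known. Alternatives were a pseudocount of 0.1, other scalings, filters, trend, blocks, denominators and each library left out. The sequence of the 7SL loci is not reported here.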

Additional observations from a re-analysis of the deposited data

Results flagged for a closer look

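A second transcript at the telomerase RNA locus, named Telomerase-vert in the files and Terc in GENCODE vM39 (chr3:96321753-96322175, 423 nt), lay outside the rule for members. It was listed at 1.206 FPKM in RVC 2 and below 0.0001 FPKM in the other libraries, and it contains the whole of the Terc transcript described above. The signal in RVC 2 lies above the level in both fresh-frozen libraries, and how reads were divided between the overlapping transcripts was not tested.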

How the results depend on the processing

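No member was called under any alternative. Transcripts called, 7 in the report, fell to 0 with no filter on low values, to 1 with a minimum of 300 nt, and to between 0 and 1 with 1 library left out. Genes called, 5 in the report, became 9 with upper-quartile scaling, 2 with a mean of at least 5, and 0 with no filter, without a trend, or when gene sums used only transcripts of 300 nt or more; they ranged from 8 to 58 with 1 library left out. With the replicate block, transcripts called fell to 0 and genes rose to 89. Since same-numbered libraries correlated at 0.0066 (transcripts) and -0.134 (genes) in their deviations from the group means, the crossed replicate block was added after seeing the data: it called 0 transcripts and 43 genes. Of 137 alternative values for the 10 member rows of at least 10 FPKM, 136 kept their direction, the exception being Terc, between -0.063 (without fresh frozen 1) and 0.27 with 1 library left out. Log2 fold changes ranged from 0.41 to 0.53 for Rn7sk, 0.70 to 0.80 for Rpph1 and 0.30 to 0.59 for Rn7s6, with adjusted p of at least 0.183. The member share differed by 6.90 points in the report, by 20.1 against transcripts of at least 300 nt, by 3.13 as coverage times length, and by 6.22 to 7.59 with 1 library left out. The Terc share, lower in RVC by under 0.0001 points, became higher by 0.00026 against transcripts of at least 300 nt, by 3.5e-05 as coverage times length, and lay between -0.00029 and 0.00013 with 1 library left out (higher without RVC 2, by 5.7e-05, and without fresh frozen 2). The 7SL share difference ranged from 0.72 (without fresh frozen 1) to 1.61 (without fresh frozen 2). The Rmrp share difference, -0.046 against transcripts of at least 300 nt and -0.016 as coverage times length, had overlapping groups. The 190 alternative values of named partners kept their direction, but leaving out 1 library moved some log2 fold changes by over 1.5 times: Dkc1 to between -0.80 and -0.10 and Naf1 to between -0.33 and -0.08 (fresh frozen libraries), Rpp30 to between -0.37 and -0.02 (RVC libraries), Rpp25l to 0.08 and Wrap53 to 0.15 (without RVC 1), Rpp25l to 0.10 without fresh frozen 2, Srsf2 to -0.24 (without fresh frozen 1) and Srp54b to -0.13 (without fresh frozen 2). Among members the shorter Rmrp row went to 0.08 without fresh frozen 1 and Gm56244 to 0.06 without fresh frozen 2. Without read counts, depth limits the low loci by an unknown amount.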

Other observations

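Other structured RNAs did not all follow Rn7sk. Among RNAs made by polymerase III, the loci named U6, 484 in all, summed to 2445 and 2700 FPKM in RVC and to 2045 and 1921 in fresh frozen, and Bc1, a neuronal-type dendritic RNA, measured 921.7 and 841.4 against 415.9 and 480.1. The Y RNAs Rny1 and Rny3, which bind the Ro protein, had overlapping groups. Among spliceosomal RNAs U4 was higher in RVC without overlap (1887 and 1758 FPKM against 547.5 and 1417), U1 and U5 overlapped, and U2 was lower without overlap at 6820 and 7816 against 8390 and 12410. The small Cajal body RNA Scarna10 measured 5192 and 5530 against 4270 and 3812. The long nuclear RNAs Malat1 and Neat1 were both higher in RVC without overlap, by ratios of 1.12 and 1.55. These sums are over deposited FPKM of loci that share reads, most of them shorter than the members, and no test was run on them.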
